A study of Mus musculus with 2 samples.

Results

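The cytoplasmic ribosome is built from ribosomal RNA and one copy of each of a large set of ribosomal proteins, which are named Rpl when they belong to the large subunit and Rps when they belong to the small subunit. Their mRNAs are among the most abundant of any dividing cell, most of them begin with a run of pyrimidines (the terminal oligopyrimidine or TOP motif) through which their translation is regulated together, and loss of a single copy of several of these genes causes anemia or malformation. In the embryonic brain, where the neuroepithelium is expanding, they are used in every cell type.

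The ribosomal protein genes were chosen by name alone, as the symbols that begin with Rpl or Rps and a number, together with Rplp0, Rplp1, Rplp2 and Rpsa, without the Rps6k kinases. This gave 85 of the 37074 gene names on the array, 52 of the large and 33 of the small subunit, measured by 184 probes of 60 bases in 769 spots. Brain RNA of mouse embryos, taken at E10.5 from the wild type and from Plzf lu/lu homozygotes, was compared on 2 two-color Agilent arrays. The luxoid (lu) allele of Plzf (Zbtb16) arose spontaneously, truncates the protein and is present in every cell of these embryos. The wild type is labeled C57BL/6, and the labels give no background strain for the luxoid embryos, so strain and genotype cannot be told apart. Each array compared 1 wild type sample in Cy3 with 1 Plzf lu/lu sample in Cy5, and the labels call the arrays biological replicates. The number of embryos behind a sample was not given in the sources used here. Dyes were not exchanged, so dye and genotype cannot be told apart at any probe. The arrays shared 1 slide and 1 scan.

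Values below are processed intensities (background subtracted and dye normalized by the scanner software) and log2 ratios (Plzf lu/lu over wild type), given for array 1 and then array 2. A gene was tested when all 4 channels gave a processed signal above 200 and a signal-to-noise ratio of 5 or more, which left 10600 genes. Where a gene had several probes, the brightest was taken. Precision is limited by the small number of arrays. On these arrays the mutated gene itself, Zbtb16, had log2 ratios of -1.33 and -1.37. In bulk tissue, fewer cells of a type and less RNA per cell cannot be told apart.

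Of the 85 ribosomal protein genes, 81 were tested. Their probes were very bright: the median processed signal was 51500 in wild type and 54100 in Plzf lu/lu on array 1, and 51500 and 52600 on array 2. In every channel, 77 of the 81 genes were above 20000, and no spot of any ribosomal protein gene was saturated. The genes below that mark were Rpl36al, Rpl7l1, Rps27l and Rps4l, which are relatives of ribosomal protein genes with a longer name. In the plot of signal and ratio, all but a few of these genes therefore sit at the right edge of the cloud.

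**Figure D1:**
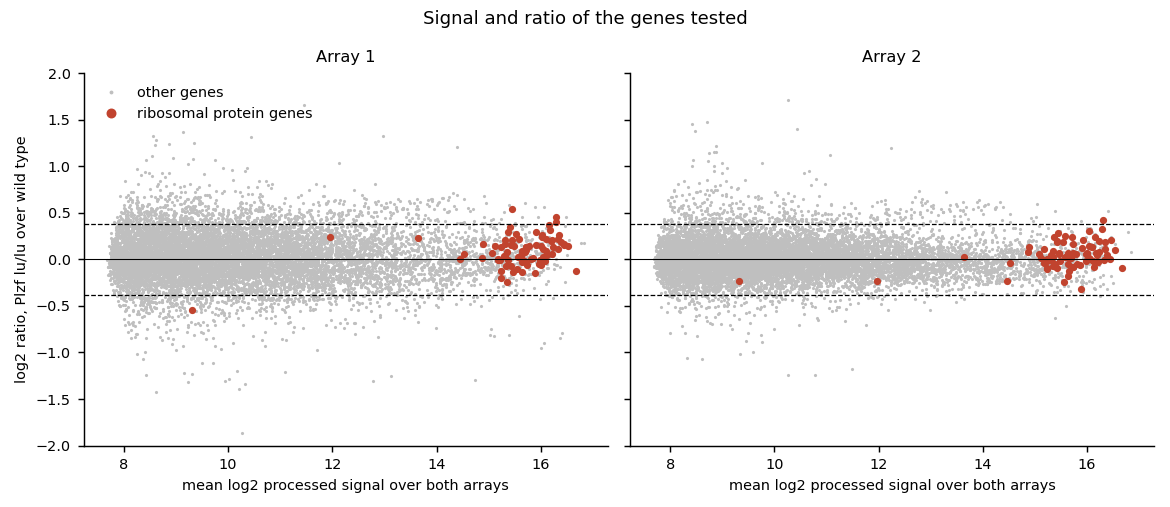
Log2 ratio, Plzf lu/lu over wild type (vertical axis) against the mean log2 processed signal over both arrays (horizontal axis) for the 10600 genes tested, with the 81 ribosomal protein genes in red and dashed lines at 1.3-fold. The vertical axis ends at 2 and leaves out 2 genes on array 1 and 1 gene on array 2, none of them a ribosomal protein gene. The red points lie close to 0 at the bright end, mostly within the dashed lines.

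As a group, these genes were nearly level between the genotypes. Their median log2 ratio was 0.093 on array 1 and 0.034 on array 2, where the median over all genes tested was 0.02 and -0.005. Averaged over the arrays, the median was 0.057 for the ribosomal protein genes and 0.007 for all genes. Of the 81 genes, 44 (54.3%) were above 0 on both arrays, 16 (19.8%) were below 0 on both and 21 had opposite signs. Over all genes tested, 37.3% were above and 35.4% below 0 on both arrays. The median difference was thus a small fraction of the 0.379 that a 1.3-fold change makes on the log2 scale.

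The spread between these genes was narrow. On both arrays, 38 of 81 (46.9%) stayed within 1.1-fold of wild type, as did 30.7% of all genes tested and 40.2% of the 719 other genes whose mean log2 signal was at least 14. The SD of the mean log2 ratio across genes was 0.14 for the ribosomal protein genes, 0.19 for those other bright genes and 0.21 for all genes. Only 4 of 81 (4.94%) passed 1.3-fold in either direction on at least 1 array, namely Rpl4, Rpl7l1, Rps10 and Rps24, against 16.8% of all genes and 79 of the 719 other bright genes. The ratios of array 1 and array 2 had a Pearson correlation of 0.70 across the 81 genes, 0.65 across the other bright genes and 0.55 across all genes, and the points of each share the 2 arrays and their dyes.

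With the threshold of the methods, 1 ribosomal protein gene, Rps10, was upregulated more than 1.3-fold on both arrays and 0 were downregulated by as much. Over all genes tested, 2.58% were above 1.3-fold on both arrays and 0.736% were below its inverse. The share of 1 of 81 (1.23%) rests on 1 probe of 1 gene, so it is not read as a difference from the background. By limma with Benjamini-Hochberg adjustment over the 10600 genes, 0 of 81 were higher and 0 were lower at an adjusted p under 0.05, where 0.0283% and 0% of all genes passed. At an unadjusted p under 0.05, 12 were higher (14.8%; background 15.7%) and 2 were lower (2.47%; background 12%). The smallest adjusted p among them was 0.0565, for Rps10.

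**Figure D2:**
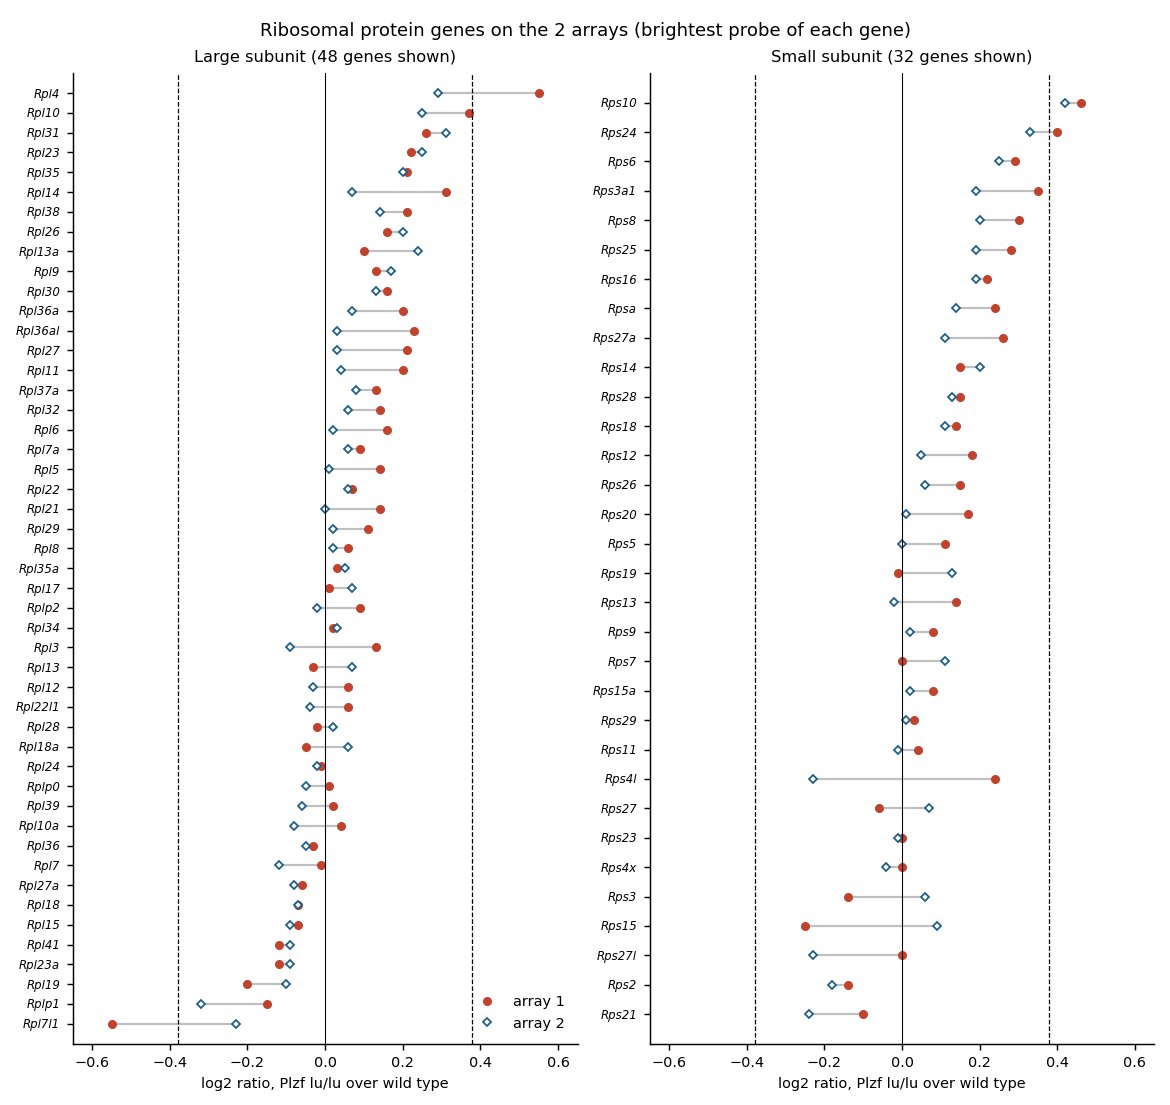
Log2 ratio, Plzf lu/lu over wild type (horizontal axis) of 80 of the 81 ribosomal protein genes tested (vertical axis, ordered by the mean), with array 1 as red circles, array 2 as blue diamonds and dashed lines at 1.3-fold. Rps10 is past the line on both arrays at 0.46 and 0.42, and Rpl4, Rps24 and Rpl7l1 are past it on array 1 alone.

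The difference between the subunits was small and was not tested. The 48 large subunit genes tested had a median log2 ratio of 0.08 on array 1 and 0.024 on array 2, and 26 of them (54.2%) were above 0 on both arrays. The 33 small subunit genes had medians of 0.14 and 0.061, and 18 (54.5%) were above 0 on both, where 37.3% of all genes tested were. Averaged over the arrays, the medians were 0.043 and 0.06, and the SD across genes was 0.14 in each subunit.

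At the upper end stood Rps10, a protein at the head of the small subunit and a Diamond-Blackfan anemia gene. Its signal was 70200 in wild type and 96200 in Plzf lu/lu on array 1, and 68000 and 91300 on array 2. Both Plzf lu/lu samples were above both wild type samples. The log2 ratio was 0.44 ± 0.02 (SD, n = 2), with an adjusted p of 0.0565 by limma. These values are of the probe from base 500, which is a single spot. The probe from base 233 of the same transcript, spotted 10 times, gave -0.03 and 0.03.

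Rpl4, which lines the peptide exit tunnel of the large subunit, went from 37100 to 54100 on array 1 and from 39900 to 48700 on array 2. Its log2 ratio of 0.42 ± 0.18 (SD, n = 2) had an adjusted p of 0.0765 by limma, and the arrays differed by more than for Rps10. Rps24, a small subunit protein that is also mutated in Diamond-Blackfan anemia, went from 68200 to 90000 and from 73400 to 92100. Its log2 ratio was 0.36 ± 0.05 (SD, n = 2), with an adjusted p of 0.07 by limma. That value is of the probe from base 444. The other 2 passing probes of Rps24 are each annotated to a different transcript. The probe from base 527 gave 0.27 and 0.29, the probe from base 356 gave -0.09 and 0.02, and the mean over probes was 0.20. Of the 81 genes tested these 3 had the smallest adjusted p. In each of 2 alternative fits, they were the 3 that passed 0.05. The fits removed the GC trend of the probes or used an eBayes variance trend. The share of all genes that passed in those fits is not given here, so these calls are not read against a background.

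Rpl10, a late-joining protein of the large subunit, had log2 ratios of 0.37 and 0.25, and Rpl31, which sits at the exit of the tunnel, had 0.26 and 0.31. Their adjusted p by limma was 0.0915 and 0.0926. In both genes the Plzf lu/lu signal was above the wild type signal on each array. For Rpl31 this is the probe from base 645, where the probe from base 374, spotted 10 times, gave -0.07 and -0.01, and the mean over probes was 0.12.

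At the lower end stood Rpl7l1, a paralog of Rpl7 and by far the dimmest of the genes tested. Its signal was 803 in wild type and 549 in Plzf lu/lu on array 1, and 662 and 564 on array 2. The mean log2 ratio was -0.39 ± 0.22 (SD, n = 2), with an adjusted p of 0.0915 by limma. Rplp1, an acidic protein of the stalk that recruits elongation factors, had 61700 and 55700 on array 1 and 70000 and 56200 on array 2, a mean log2 ratio of -0.23 ± 0.12 (SD, n = 2; limma adjusted p = 0.147). Rps21, Rps2 and Rpl19 followed at -0.17, -0.16 and -0.15, with adjusted p values of 0.224, 0.238 and 0.255 by limma. With median centring in place of the curved dye normalization, which raised the median of all genes to 0.55, all of these 5 log2 ratios were above 0, at 0.12 for Rpl7l1, 0.76 for Rplp1, 0.79 for Rps21, 0.75 for Rps2 and 0.73 for Rpl19, and only Rpl7l1 was then below the median of all genes.

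The other stalk proteins and the laminin receptor Rpsa differed little. Rplp0, the stalk base that is often used as a reference gene, had log2 ratios of 0.01 and -0.05. Rplp2, the partner of Rplp1, had 0.09 and -0.02. Rpsa, which is a small subunit protein and also a cell surface laminin receptor, had 0.24 and 0.14, and its mean of 0.19 ± 0.06 (SD, n = 2) had an adjusted p of 0.18 by limma. That is the probe of Rpsa from base 960, where the probe from base 876 had a mean of -0.01. None of these 3 approached 1.3-fold.

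Of the 15 genes in the list of ribosomopathy and mouse mutant genes, all were tested, 11 were above 0 on both arrays and 2 were below 0 on both. Over all genes tested these shares were 37.3% and 35.4%. The median log2 ratio of that list was 0.15 on array 1 and 0.06 on array 2. In the list 1 gene, Rps10, was above 1.3-fold on both arrays, where 2.58% of all genes were. Rpl38, the gene of the tail short mouse with its homeotic changes of the skeleton, had log2 ratios of 0.21 and 0.14. Rpl24, mutated in belly spot and tail mice, had -0.01 and -0.02.

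Rpl5 and Rpl11, which together bind Mdm2 when ribosome assembly fails, had log2 ratios of 0.14 and 0.01 for Rpl5 and of 0.20 and 0.04 for Rpl11. The Diamond-Blackfan genes Rpl26 and Rpl35a had means of 0.18 and 0.04. Of the small subunit genes of that list, Rps26 had a mean of 0.10, Rps20 of 0.09, Rps19 of 0.06, Rps7 of 0.05 and Rps29 of 0.02. None of these 9 had an adjusted p under 0.1 by limma.

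Several ribosomal protein genes have a paralog that replaces the common form in particular tissues. The muscle form Rpl3l and the testis forms Rpl10l and Rpl39l were not tested, since all their signals were far below 200. The 4 channels read 3.79 to 9.63 for Rpl3l and 3.76 to 6.33 for Rpl10l, and Rpl39l read 7.67 and 10.2 on array 2. No ratio is given for them. Rpl37 was not tested either. Its 1 probe lies late in the annotated transcript, from base 661, and read 38.7 to 48.5 in all channels, so the level of Rpl37 mRNA outside that stretch was not measured here.

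For pairs in which both genes were tested, the log2 ratios are set side by side. Rpl7 had log2 ratios of -0.01 and -0.12, where Rpl7l1 had -0.55 and -0.23. Rpl22 had 0.07 and 0.06 and Rpl22l1, which can stand in for it, had 0.06 and -0.04. Rpl36a had 0.20 and 0.07 and its intronless copy Rpl36al had 0.23 and 0.03. Rps27 had -0.06 and 0.07, where Rps27l, a target of p53, had 0.00 and -0.23. These values are of the brightest probe, and other passing probes differed. They gave 0.02 and -0.16, and -0.01 and -0.07, for Rpl36a, and 0.02 and -0.05 for Rpl36al. For Rpl7 they gave 0.17 and 0.04, and -0.14 and -0.22. For Rps27 the other probe gave -0.12 and -0.01, and for Rps27l -0.26 and -0.19. Differences between the members of a pair were not tested.

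The ribosome also holds proteins whose genes do not carry an Rpl or Rps number. Gnb2l1 (Rack1), a scaffold protein of the small subunit, read 55600 in wild type and 82200 in Plzf lu/lu on array 1, and 61400 and 77400 on array 2. Its log2 ratios of 0.56 and 0.33 had an adjusted p of 0.0652 by limma, so it did not pass the test. Under the alternative settings described below, its mean log2 ratio of 0.45 ran from 0.16 to 1.39. Fau, which encodes the ribosomal protein S30 fused to a ubiquitin-like protein, had -0.06 and 0.04.

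Genes that work with the ribosome were described in the same way. Of 16 genes of translation elongation and other TOP mRNAs, 10 were above and 1 was below 0 on both arrays. Among all genes tested, the shares were 37.3% and 35.4%. The log2 ratios of these 16 had medians of 0.18 on array 1 and 0.02 on array 2. Of 23 initiation factors tested, 0 were above 1.3-fold on both arrays and 1 was below its inverse, where 2.58% and 0.736% of all genes were. That gene was Eif5a, a hypusine-containing factor that helps the ribosome past proline runs. Eif5a read 57900 in wild type and 33100 in Plzf lu/lu on array 1, and 52500 and 33900 on array 2. Its log2 ratios were -0.81 and -0.63, and both Plzf lu/lu samples lay below both wild type samples, with an adjusted p of 0.051 by limma.

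Of 41 genes of ribosome assembly and rRNA synthesis tested, 1 was above 1.3-fold on both arrays, where 2.58% of all genes were. That gene was Ubtf, the factor that opens rDNA for RNA polymerase I. Ubtf had log2 ratios of 0.66 and 0.59 and an adjusted p of 0.051 by limma. The median of that list was 0.02 on array 1 and -0.02 on array 2. The 73 mitochondrial ribosomal protein genes tested had medians of -0.11 and -0.05. On both arrays 13 were above and 40 below 0, where 37.3% and 35.4% of all genes tested were. None of the 73 was beyond 1.3-fold on both arrays, where 2.58% of all genes were above and 0.736% below its inverse. At an adjusted p under 0.05, limma called 0 genes in each of these lists, and at an unadjusted p under 0.05 it called 4 higher and 0 lower among the TOP mRNA genes, 2 and 2 among initiation factors, 3 and 1 among assembly genes, and 2 and 12 among mitochondrial ribosomal proteins, where the background was 15.7% higher and 12% lower.

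Of the markers of cell types in the tissue, erythroid, early neuron and neuroepithelial medians differed between the 2 arrays. The endothelial markers tested were below 0 on both. Of the 10 erythroid markers, 6 were tested, and their median log2 ratio was -1.05 on array 1 and 0.10 on array 2. The summed signal of all 10 was 470000 in wild type and 252000 in Plzf lu/lu on array 1, and 195000 and 238000 on array 2. The embryonic globin Hbb-y alone read 147000 in the wild type sample of array 1 and between 56500 and 84600 in the other 3 samples. Endothelial markers (3 of 7 tested) had medians of -0.58 and -0.68, and early neuron markers (4 of 5 tested) had 0.08 and 0.66. All 8 neuroepithelial markers were well above background, and the 7 tested had medians of 0.10 and 0.44. The 6 mesenchymal markers had -0.04 and -0.15. The part of these differences in the ratios of ribosomal protein genes was not tested. Between the arrays, the erythroid median moved by over 1 on the log2 scale and that of the ribosomal protein genes from 0.093 to 0.034.

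**Figure D3:**
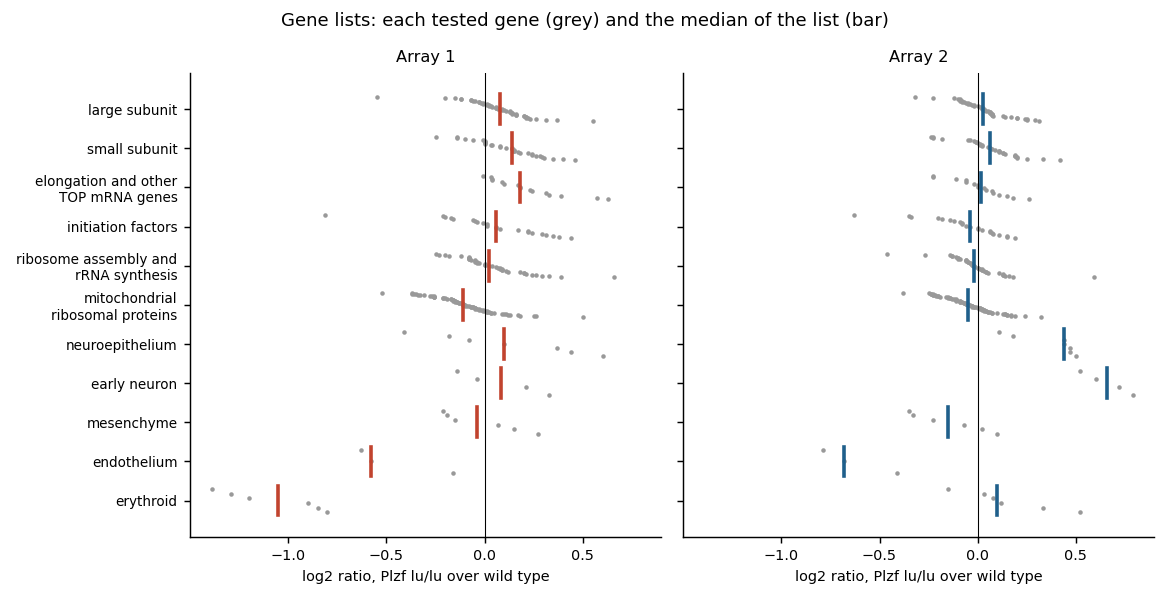
Log2 ratio, Plzf lu/lu over wild type (horizontal axis) of each tested gene (grey points) in 11 gene lists (rows), with the median of the list as a bar, for array 1 and array 2. The ribosomal protein genes of both subunits gather near 0 on each array, while the erythroid median is -1.05 on array 1 and 0.10 on array 2.

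Probes of a single ribosomal protein gene often gave different ratios, and by more than the SD over the spots of a repeated probe. The 119 probes with 1 spot have no such SD. On the array, 65 of the 184 probes are spotted 10 times, which makes up 21.7% of the 300 gene probes spotted in this way. Over the spots of such a probe, the SD of the log2 ratio was 0.033 on array 1 and 0.031 on array 2 at the median, with a highest value of 0.101. The arrays differed by 0.057 at the median and 0.21 at most. In 36 of the 65 probes, that difference was more than 3 times its standard error from spots. None of the 65 was beyond 1.3-fold on either array, and their median log2 ratio was -0.011 on array 1 and 0.016 on array 2.

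Between probes of a gene the range was wider. The 57 genes with 2 or more passing probes had a median range of 0.20 in the mean log2 ratio, from 0.004 to 0.57, and in 31 of them the probes lay on both sides of 0. In 10 of 57 (17.5%) the range was over 0.379, the size of a 1.3-fold change, as it was in 15.4% of the 2109 other genes with several passing probes. The widest ranges were those of Rplp1, Rps3a1, Rps25, Rps10 and Rpl9. Of 184 probes, 167 passed the filter. Of the 17 that did not, 10 are annotated to Ensembl transcripts, cDNA clones or ESTs.

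Stretches of 30 bases from the passing probes of 3 of these genes are printed, since the result for each gene rests on which of them is read. They are written 5′ to 3′ as deposited, with bases that a second probe of the gene also holds in capitals:
Rps10, probe from base 233: catccagtatctccgagactacctgcacct
Rps10, probe from base 500: CCACCTCAGTGAAGTTGGAGTTTATGTTGT
Rps10, probe from base 554: CCACCTCAGTGAAGTTGGAGTTTATGTTGT
Rplp1, probe from base 222: gagCCTCATCTGCAATGTAGGGGCTGGTGG
Rplp1, probe from base 239: atCCTCATCTGCAATGTAGGGGCTGGTGGg
Rplp1, probe from base 377: ttggccaataaagagctgaacctgtaaaaa
Rps3a1, probe from base 523: agacatcctatgcgcagcaccagcaagtcc
Rps3a1, probe from base 738: gaattgggcaagctcatggagctgcatggg
Rps3a1, probe from base 792: gtaTAAAATCCAGATTTTTAATAGTGACAA
Rps3a1, probe from base 870: tgTAAAATCCAGATTTTTAATAGTGACAAa

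In Rps10, the probe from base 500 (chr17:27767387-27767446, mm9) gave 0.46 and 0.42, and the probe from base 554 of an Ensembl transcript, with which it shares 40 bases, gave 0.46 and 0.34. The probe from base 233 (chr17:27771085-27771144) is spotted 10 times and gave -0.03 and 0.03, with an SD over spots of 0.025 and 0.031. It read 28900 in wild type and 28300 in Plzf lu/lu on array 1, and 28300 and 29000 on array 2. The difference in Rps10 between the genotypes was thus seen at the downstream end of the transcript and not at the upstream probe.

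In Rplp1, too, the downstream probe gave the higher ratio. Its overlapping probes from bases 222 and 239, which share 27 bases, gave -0.14 and -0.34, and -0.15 and -0.32. They lie at chr9:61761259-61761318 (mm9, the probe from base 239). The probe from base 377 (chr9:61761086-61761145, mm9), annotated to a cDNA clone and ending in a run of a, gave 0.47 and 0.19. It is 35% G and C, where the overlapping probes are 55%, so position and base composition both differ. The direction of Rplp1 therefore depended on the probe read.

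In Rps3a1, which encodes a small subunit protein, the probes from bases 792 (chr3:85941887-85941946, mm9) and 870 (chr3:85941875-85941934), which share 27 bases and are 35% G and C, gave 0.45 and 0.24, and 0.35 and 0.19. The upstream probes from bases 523 and 738, both 45% G and C, gave 0.04 and -0.04, and -0.10 and -0.17. The probes of Rpl9 from base 53 gave -0.41 and -0.15 and from base 568 gave 0.13 and 0.17. Rps25, a small subunit protein needed at some viral entry sites, had -0.25 and -0.18 from base 8 and 0.28 and 0.19 from base 407. The first of these probes is annotated to a cDNA clone and is 56.7% G and C, and the second is 35%.

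Rpl3 went from -0.44 and -0.31 at base 159 to -0.03 and -0.16 at base 1115 and 0.13 and -0.09 at base 1218. Rps19 went from -0.36 and -0.17 at base 276 to -0.01 and 0.13 at base 568. In Rpl5, the probe from base 741 gave 0.52 and 0.41, past 1.3-fold on both arrays, where the brighter probe that stood for the gene, from base 574 of an Ensembl transcript, gave 0.14 and 0.01. Rpl39 with 5 probes went less evenly, from -0.44 and -0.28 at base 32 to -0.16 and -0.22 at base 231 and 0.02 and -0.06 at base 277.

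**Figure D4:**
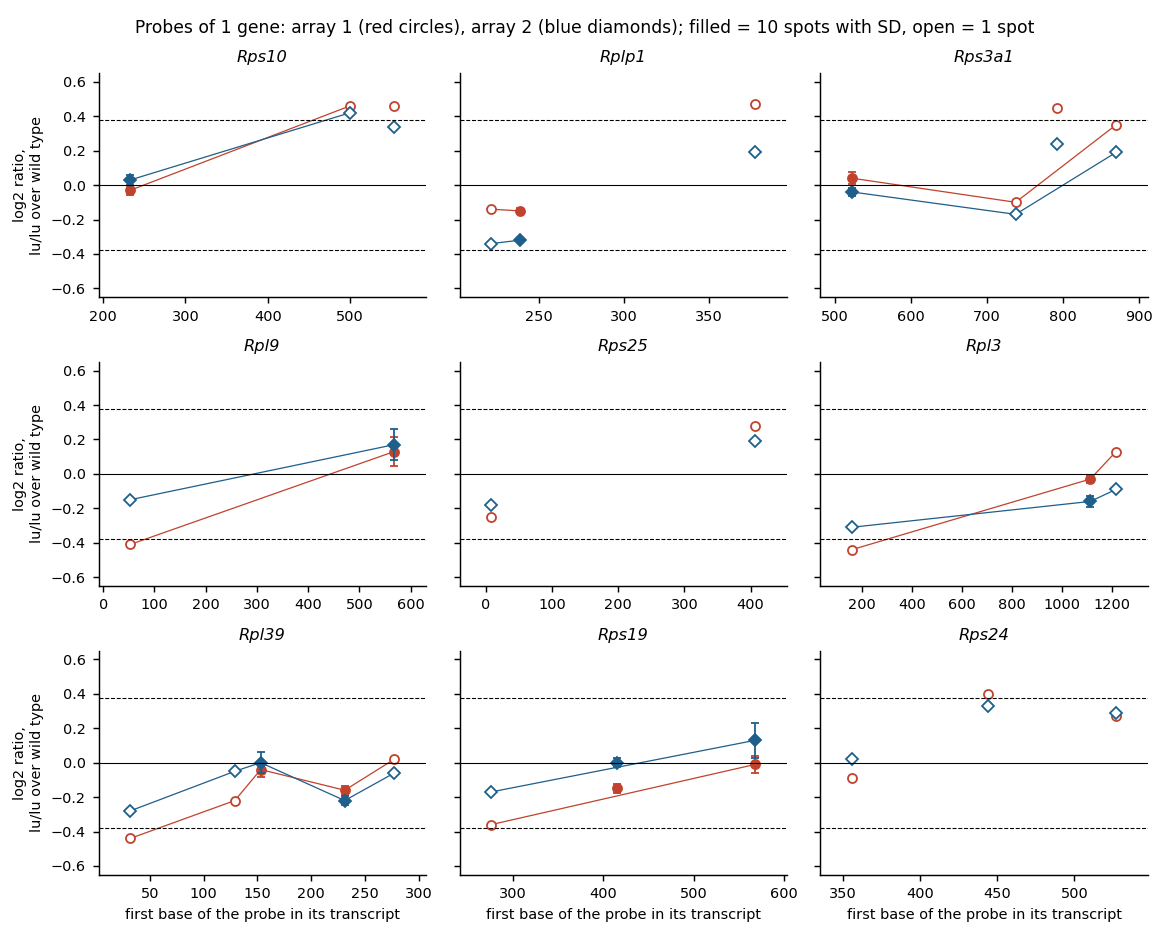
Log2 ratio, Plzf lu/lu over wild type (vertical axis) of each passing probe of 9 ribosomal protein genes against the first base of the probe in its annotated transcript (horizontal axis). Array 1 is in red circles and array 2 in blue diamonds, filled symbols are probes of 10 spots with the SD over spots as bars, open symbols are single spots without an error, lines join probes of the same transcript, and dashed lines mark 1.3-fold. In Rps10 the ratio goes from -0.03 and 0.03 at base 233 to 0.46 and 0.42 at base 500.

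The position of the probe was then compared over all genes with several passing probes on the same annotated transcript. Of 64 pairs of probes in 43 ribosomal protein genes whose starts lay at least 60 bases apart, so that they did not overlap, the downstream probe gave the higher ratio in 57 pairs on array 1 (89.1%) and in 48 on array 2 (75%). It was higher on both arrays in 47 pairs (73.4%) and lower on both in 6 (9.38%). The downstream ratio exceeded the upstream ratio by 0.21 on array 1 and 0.11 on array 2 at the median. In the 30 pairs at least 200 bases apart the medians were 0.28 and 0.15, and 25 pairs were higher and 1 lower downstream on both arrays. Pairs of a gene share probes, and all pairs share the 2 arrays.

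The same order was present in other genes. Among 1862 pairs at least 60 bases apart in 1494 other genes, the downstream probe was higher in 78.7% on array 1 and in 67.7% on array 2, with medians of 0.19 and 0.09. It was higher on both arrays in 62.8% and lower on both in 16.3%. Whether the difference was larger in ribosomal protein genes was not tested.

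**Figure D5:**
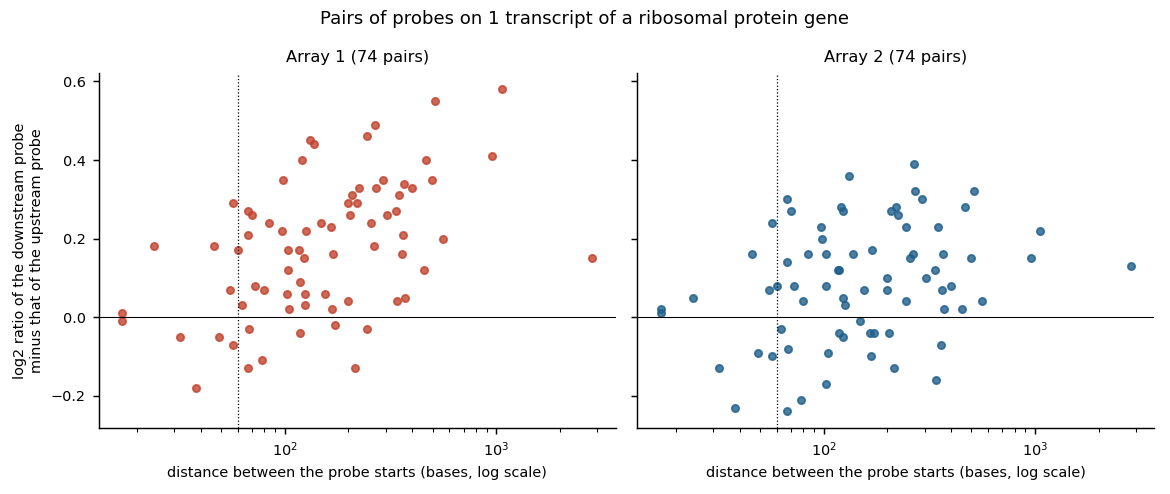
Log2 ratio of the downstream probe minus that of the upstream probe (vertical axis) against the distance between their starts in bases (horizontal axis, log scale) for 74 pairs of passing probes on the same transcript of a ribosomal protein gene, for array 1 and array 2. The dotted line marks 60 bases, below which the probes overlap. To its right 57 of 64 points on array 1 and 48 of 64 on array 2 lie above 0.

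The base composition of the probes moved with the ratio as well. Across the 167 passing probes, the log2 ratio had a Spearman correlation with the GC content of -0.40 on array 1 and -0.25 on array 2, and across the probes that stood for the 81 genes of -0.29 and -0.07, where across all genes tested it was -0.38 and -0.20. The 28 probes under 40% G and C had a median of 0.20 on array 1 and 0.064 on array 2, and the 50 probes of at least 50% had -0.052 and 0.004. In the 34 probe pairs whose GC content differed by at most 5 percentage points, the downstream probe was higher on both arrays in 26 and lower on both in 4, with medians of 0.19 and 0.14. The downstream probe was also the brighter probe in 52 of the 64 pairs, and the part of signal and base composition in the difference was not tested.

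The level of the whole group moved with the choice of probe. In the 43 ribosomal protein genes with separate probes on the same transcript, the most upstream probes had a median log2 ratio of -0.08 on array 1 and -0.06 on array 2, with 4 above and 28 below 0 on both arrays. The most downstream probes had 0.11 and 0.03, with 25 above and 8 below. In 1494 other genes the corresponding medians were -0.13 and -0.07 upstream and 0.08 and 0.02 downstream. Of those genes, 285 were above and 853 below 0 on both arrays upstream, and 700 and 397 downstream. The median of 0.057 given above rests on the brightest probe of each gene, and was 0.020 with the mean over probes and 0.005 when each probe was counted by itself. A difference in RNA integrity between the samples was not measured here, and its part in these differences was not tested.

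Overlapping probes gave similar ratios. Of 14 pairs of passing probes of a gene that share at least 20 bases, the absolute difference was 0.05 on each array at the median, with a largest value of 0.24 on array 1 and 0.41 on array 2. The largest was that of Rpl14, a large subunit protein, at 35 shared bases. For the 4 pairs that share at least 40 bases it was at most 0.10 on array 1 and 0.08 on array 2.

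Ribosomal protein genes have many processed pseudogenes, and RefSeq (GRCm38.p6) names 315 pseudogenes of 59 of the 85 genes. The deposited annotation places 7 probes of 4 of these genes, Rpl13, Rpl36, Rps27 and Rps29, on another chromosome than the RefSeq gene. All 7 passed the filter, and their log2 ratios ran from -0.17 to 0.07. They include every passing probe of Rps27 and of Rps29, so the values given above for both of those genes rest on such probes alone. The probe of Rps29 on chromosome 12, that of its RefSeq gene, did not pass. Only chromosomes were compared, so a probe placed elsewhere on the same chromosome is not counted. The probe that stood for Rps2 is placed at chr17:42864841-42864900 (mm9). The other passing probe of Rps2 is placed at chr17:24857583-24857642 and gave -0.26 and -0.20. How much a pseudogene transcript contributed to any of the signals was not tested.

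These genes also took part in the normalization that their ratios rest on. Of their 769 spots, 453 (58.9%) on array 1 and 421 (54.7%) on array 2 were among the spots the software used to fit the dye curve, against 12.9% and 13% of the other gene spots. They made up 5.65% and 5.24% of all spots so used, and 22.8% of the gene spots with a mean log2 signal of at least 14. When the curve was fitted anew from the unprocessed signals without any of their spots, their median was 0.12, against 0.10 with them. In both fits the same 3 genes, Rps10, Rps24 and Rpl10, were above 1.3-fold on both arrays.

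With median centring and no curve, their median was 1.01, where that of all genes was 0.55 and that of the 719 other bright genes was 0.84. Relative to those other bright genes, the median of the 78 ribosomal protein genes of at least the same signal was higher by 0.071 in the processed values, by 0.12 after normexp and loess, and by 0.17 after median centring.

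Promoter letters were not used in the choice by name, and their counts are given as a description. RefSeq promoters (250 bases before to 50 after the start, GRCm38.p6) were found for 64 of the 85 genes. The letters CCGGAAG, which fit ETS factors, occurred on either strand in 26 of 64 (40.6%), against 9.93% of 27025 genes with a promoter. A run of at least 6 pyrimidines over the start base was present in 19 (29.7%), against 8.48%. CTCTTTC was found in 28.1% against 9.28%, and TATAAA in 10.9% against 15.7%, both on either strand, and CTCTTTC can overlap the run. These are matches of letters, not measured sites. The promoters of the 2 genes with the highest mean ratio are printed from 40 bases before to 20 bases after the start, with CCGGAAG and the run over the start in capitals:
Rps10, chr17:27635225-27635284, minus strand: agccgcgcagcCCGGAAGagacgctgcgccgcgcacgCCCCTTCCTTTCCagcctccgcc
Rpl4, chr9:64173347-64173406, plus strand: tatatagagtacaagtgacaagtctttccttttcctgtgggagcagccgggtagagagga
Rps10 holds both features, with a run of 13 pyrimidines, and the RefSeq start of Rpl4 lies outside its own pyrimidine run in this window.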

How the data were processed

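RNA from the brain of 2 wild type and 2 Plzf lu/lu samples was amplified by in vitro transcription and hybridized to 2 arrays. Feature Extraction 10.7.3.1 was run by the authors, with background subtraction and a rank-consistency LOWESS of the dyes. The deposited intensity values are raw, background and processed signals, and the deposited log10 values are Cy5 over Cy3. The same ratios were also deposited as log2, in a table within 0.005 of them. Probe positions (mm9) come with the deposited files.

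Control spots and outliers were dropped, log2 ratios of the processed signals were averaged over the spots of a probe, and a gene was read at its brightest probe. Ratios were fitted with limma 3.58.1 in R 4.3.3 (intercept, eBayes, Benjamini-Hochberg over 10600 genes), with 1 residual degree of freedom per gene, so the test rests on variance pooled across genes. Python 3.11.15 with pandas 2.3.3, numpy 2.4.6 and matplotlib 3.10.9, and the R package data.table (version 1.17.8), served for the rest. The fit was run on simulated data whose planted changes were larger than the ratio of any ribosomal protein gene tested. How well it finds ratios as small as theirs was not tested.

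The genes, lists and tests were chosen with earlier results of these data known. Named genes are those beyond 1.3-fold on both arrays, the 5 highest and 5 lowest by mean ratio, the 5 with the widest range over probes, the stalk genes and Rpsa, paralog pairs, ribosomopathy and mouse mutant genes, and genes failing the filter, and Gnb2l1 and Fau. Some genes that this rule selects are not reported here. Rpl14, the genes below a signal mark, those with probes on another chromosome, and Eif5a, Ubtf, Hbb-y and Zbtb16 were named after their values were seen.

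Alternatives were normexp (offset 50) with loess or median centring, the deposited log2 table, other filters, the mean over probes, each probe by itself, removal of the GC trend (lowess, span 0.67), a threshold of 1.5-fold, eBayes with trend, unpaired channels and each array alone. Loess without the ribosomal protein spots was chosen after seeing the data.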

Additional observations from a re-analysis of the deposited data

How the results depend on the processing

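The median log2 ratio of the ribosomal protein genes stayed above 0 and above the median of all genes, by 0.013 to 0.45, under each alternative listed here. At the most upstream probes of the 43 genes with separate probes on a transcript, it was below 0, at -0.08 and -0.06. It moved from 0.057 to 0.10 with normexp and loess, 0.12 with loess fitted without their spots, 1.01 with median centring and 0.005 with each probe counted by itself. With an array left out it was 0.034 to 0.093. The cause was not tested.

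The count above 1.3-fold on both arrays, 1 in the processed values, was 3 with normexp and loess, 3 without the ribosomal protein spots in the loess, 79 with median centring (6698 of the 10600 genes tested, against 274 in the processed values and 285 with normexp and loess), 0 with the mean over probes, 3 of 167 with each probe by itself (Rps10, Rpl5 and Rpl14) and 0 at 1.5-fold. With a single array it was 1 to 3. The count below the inverse, 0, was 1 without a filter and 0 to 1 with a single array: without array 2, Rpl7l1 was below and Rpl4 and Rps24 were above as well.

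By limma at an adjusted p under 0.05, 0 higher became 80 with median centring, where 9637 of all genes were higher, and 3 with the GC trend removed or with eBayes with trend (Rpl4, Rps10 and Rps24), and 0 lower stayed 0. At an unadjusted p under 0.05, 12 higher became 27 with normexp and loess, 28 without their spots, 80 with median centring, 6 with the well above background filter, 1 without a filter, 7 with the mean over probes, 20 with the GC trend removed and 21 with eBayes with trend. The 2 lower became 1 with normexp and loess, without their spots in it, with the deposited log2 table, with the well above background filter, without a filter and with the GC trend removed, 0 with median centring, and 5 with eBayes with trend. Except for median centring at the adjusted p, the counts over all genes in these settings are not given here. The changes in these counts are therefore not read as particular to the ribosomal protein genes.

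Each array pairs a wild type with a lu/lu sample. With the pairing by array dropped (no replicate block), limma gave 0 higher and 0 lower at an adjusted p under 0.05, and 13 and 2 at an unadjusted p, against 12 and 2 with it, which changed no call at the adjusted p. limma could not be fitted with an array left out. Of 170 values of the 17 named genes with a mean log2 ratio of at least 0.15 in size, 164 kept their sign. The exceptions were Rpl19, Rpl7l1, Rplp1, Rps2 and Rps21 with median centring, and Rpl9, at -0.07 with the mean over probes.

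With 2 arrays in the same dye orientation, the precision of every ratio is limited by their number. Signals were far above background for all but a few of these genes, so depth of signal limits mainly Rpl7l1.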
